A study of Saccharomyces cerevisiae with 9 samples.

Results

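The genes described here encode the machinery that copies chromosomal DNA in budding yeast: origin binding and licensing, helicase activation, the replicative polymerases with their clamp and clamp loader, the single-strand binding protein, deoxynucleotide synthesis and the joining of new strands. They were chosen by name, as 51 listed genes. The probe annotation named 48 of them, each with 1 probe set, among 5359 tested probe sets of 5311 genes. MCM4, SLD3 and RFC2 were not analysed here. Total RNA of the strain SK1, a laboratory strain known for efficient sporulation, was hybridized as biotinylated cDNA to Affymetrix arrays. WT cells, described in the labels as wild type, and ime4-/- cells (ime4 below), which lack the RNA N6-adenosine methyltransferase gene IME4, were sampled in vegetative growth in rich medium (YPD: yeast extract, peptone and dextrose) and 4 h after transfer to sporulation medium (SPO, 1% potassium acetate). There were 2 arrays of WT in YPD, 3 of WT in SPO, 2 of ime4 in YPD and 2 of ime4 in SPO. Arrays of a group are biological replicates per the labels, which give neither mating type nor ploidy.

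A yeast chromosome is copied from many origins. In G1 the origin recognition complex, with Cdc6 and Cdt1, loads the ring-shaped Mcm helicase onto DNA. Kinases then switch the helicase on by recruiting Cdc45 and the GINS complex, and polymerases follow the opened fork. Many of these genes are transcribed as cells pass from G1 into S phase, and cells that enter meiosis use the same machinery for the premeiotic round of replication.

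Values are log2 intensities after RMA. That method corrects background, brings the probe values of all arrays to a common distribution and summarises the probes of a set. Each level or difference is thus read against the rest of the array, and a shift common to most transcripts would be largely removed. The summarised values still differed: medians over the tested sets ran from 7.73 (WT replicate 2 in YPD) to 7.86 (WT replicate 2 in SPO). A further quantile normalization moved some genes, as given below. Replicate arrays correlated with r of 0.998 to 0.999. Over the 48 genes, a pair of replicates differed by a median of 0.0479 to 0.0818 log2 without sign. The background level, taken from probe sets of another yeast species, lay at 3.01 to 3.25 log2, and all 48 genes were above it on all 9 arrays. IME4 read 5.35 in YPD and 7.12 in SPO in WT, and was below background on every ime4 array. The 4 markers of a cells examined (HMRA1, MFA1, MFA2 and STE2) were lower in ime4 in both media, and the 4 markers of alpha cells (HMLALPHA1, STE3, MF(ALPHA)1 and MF(ALPHA)2) were higher. The summed intensity of the a markers was 2541 to 3017 on the WT arrays and 56.2 to 131 on the ime4 arrays, and that of the alpha markers was 109.3 to 250.6 on the WT arrays and 1170 to 5200 on the ime4 arrays. HMRA1 and MFA2 were at background on both ime4 arrays in YPD. The IME4 genotype and this mating-type pattern cannot be told apart in these samples. All 6 meiotic genes examined (IME1, IME2, SPO11, HOP1, REC8 and DMC1) rose in WT in SPO, against 46.9% of all tested sets. In ime4 5 of the 6 rose too, against 44% of all sets, with a median of 1.00 log2 against 1.34 in WT. Between the genotypes in SPO, 4 of the 6 were lower in ime4, against 39.4% of all sets.

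Most DNA replication genes fell when WT cells were moved to SPO. Of the 48 genes, 36 fell and 9 rose (limma, Benjamini-Hochberg adjusted p under 0.05), while among all tested probe sets 43.1% fell and 46.9% rose. The median change was -0.73 log2 over the replication genes and 0.055 over all tested sets. At least 2-fold falls were found in 17 of the 48 genes and in 21.1% of all sets, and no replication gene rose 2-fold, against 22.1% of all sets. Falls, including those of at least 2-fold, were thus more frequent than over all sets. In a culture, a smaller share of cells in S phase and less RNA per cell cannot be told apart.

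In ime4 cells the same transfer lowered fewer of these genes. A fall was called for 29 of 48 and a rise for 13 (42% and 44% of all tested sets), with a median of -0.41 log2 against 0.039 over all sets. At least 2-fold changes were 8 falls and 2 rises, against 16.2% and 17.2% of all sets. Of the 36 genes that fell in WT, 28 fell in ime4 too, 4 rose and 4 did not pass the threshold, and among all sets that fell in WT 85.7% fell in ime4 and 5.89% rose. The 4 genes that went opposite ways were CTF4, POL2, PRI2 and CDC9. Of the 9 genes that rose in WT, 7 rose in ime4, none fell, and CDC7 and POL31 did not pass the threshold. Among all sets that rose in WT, 82.4% rose in ime4 and 3.7% fell.

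Between the genotypes in YPD few replication genes differed: 4 were higher and 7 lower in ime4, against 21.3% and 18.7% of all tested sets, and none differed 2-fold (0.97% of all sets were 2-fold higher and 0.914% lower). The median was -0.036 log2 against 0.019 over all sets. In SPO, by contrast, 29 of the 48 genes were higher in ime4 and 6 were lower, against 34.1% and 39.4% of all sets. The median was 0.24 log2 against -0.037 over all sets. At least 2-fold higher in ime4 in SPO were 5 genes (5.71% of all sets), namely POL2, CTF4, POL30, CDC9 and RFC3, and none was 2-fold lower (1.72%). The interaction, which is the response to SPO in ime4 minus that in WT, was positive for 28 genes and negative for 3, against 29.5% and 34.6% of all sets, with a median of 0.35 log2 against -0.049. It was at least 2-fold for POL2, CTF4 and POL30, all positive, against 6.59% of all sets positive and 3.4% negative. The interaction and the SPO comparison use the same SPO arrays, so their counts are not separate evidence.

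**Figure D1:**
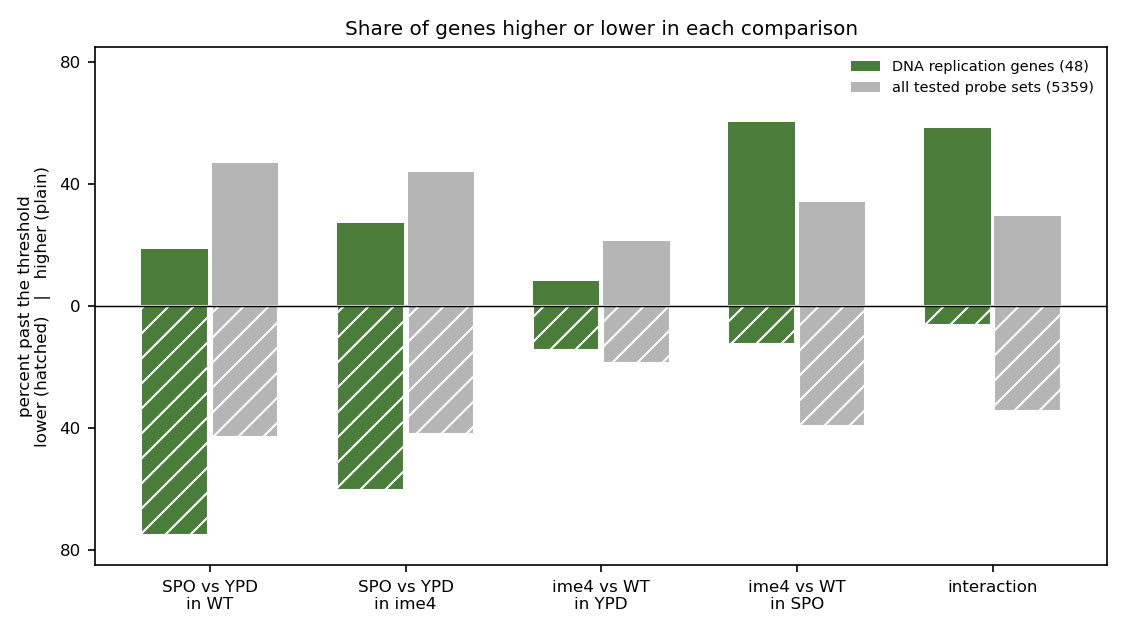
Percent of the 48 DNA replication genes (green) and of all 5359 tested probe sets (grey) that were higher (plain bars, upward) or lower (hatched bars, downward) past an adjusted p of 0.05 in each of the 5 comparisons. Replication genes fell more often than all sets on transfer to SPO, and in SPO 29 of them were higher in ime4 and 6 lower.

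**Figure D2:**
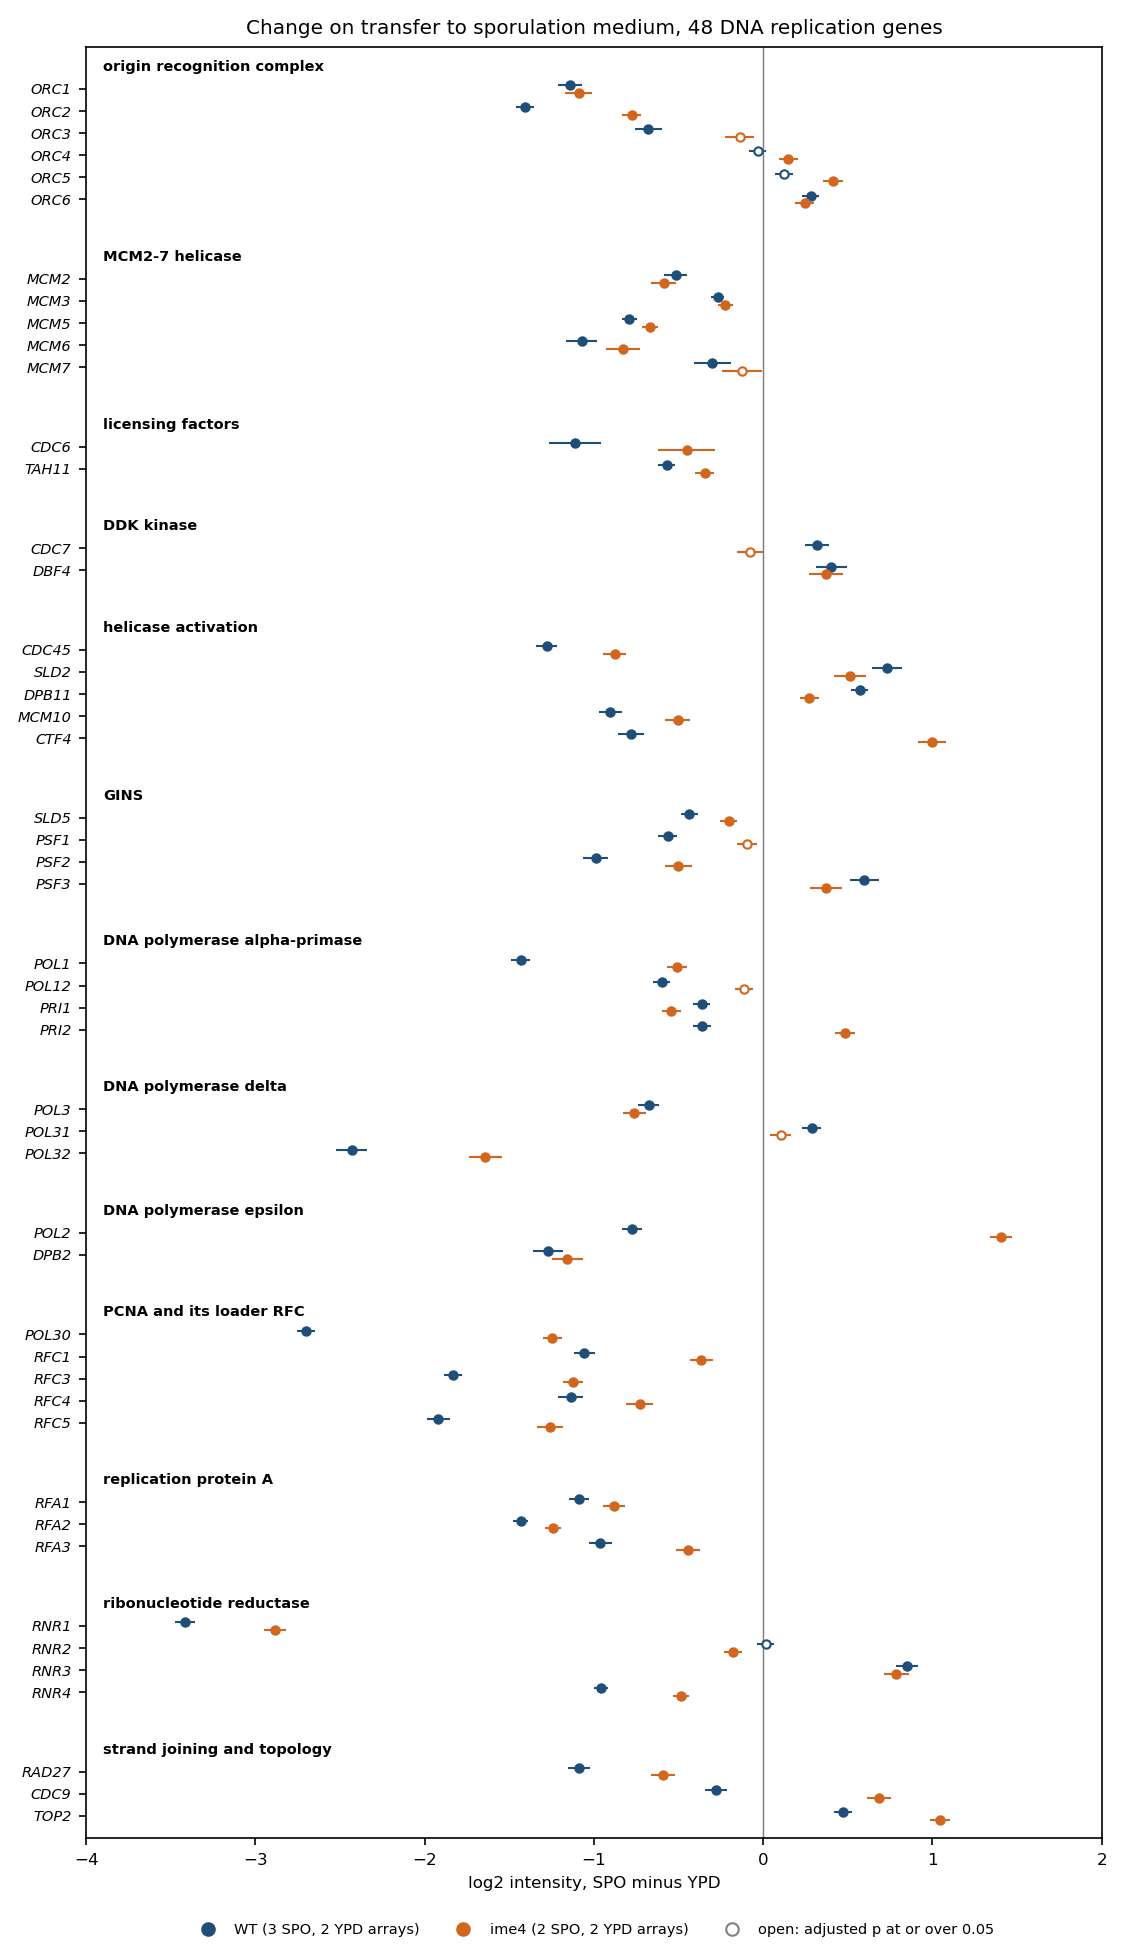
Log2 change from YPD to SPO of each of the 48 genes, grouped by role, in WT (blue) and ime4 (orange), with the SE of the fit as bars. Filled points passed an adjusted p of 0.05. Most blue points lie left of 0, and CTF4, POL2, PRI2 and CDC9 have a blue point left of 0 and an orange one right of it.

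Ribonucleotide reductase makes the deoxynucleotides for DNA synthesis, and its 4 genes went separate ways. RNR1, which encodes the major large subunit, read 8.77 and 8.77 log2 in WT in YPD and 5.41, 5.38 and 5.27 in WT in SPO. In ime4 it read 8.49 and 8.47 in YPD and 5.51 and 5.68 in SPO. The SPO arrays of both genotypes lay far below every YPD array. The fall was 10.7-fold in WT (log2 -3.42, SE 0.0614, adjusted p = 1.97e-11) and 7.39-fold in ime4, the largest among the 48 genes in each genotype. In YPD it was 0.29 log2 lower in ime4 (adjusted p = 0.00794). RNR3, the gene of the minor large subunit, which is known for induction by DNA damage, read 5.07 and 5.0045 in WT in YPD and 5.85, 5.98 and 5.83 in WT in SPO, and 4.89 and 4.78 in YPD and 5.55 and 5.69 in SPO in ime4. It rose in both genotypes, by 0.85 log2 in WT (adjusted p = 8.9e-07) and 0.79 in ime4, the latter reduced to 0.27 with quantile normalization.

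The small subunits also differed from each other. RNR4 read 10.69 and 10.76 in WT in YPD and 9.76, 9.77 and 9.77 in WT in SPO, and 11.01 and 11.01 in YPD and 10.52 and 10.53 in SPO in ime4. It fell by 0.96 log2 in WT and by 0.49 in ime4, and was higher in ime4 in both media (0.28 in YPD and 0.76 in SPO, adjusted p = 0.00124 and 3.28e-07), with no overlap of the arrays. RNR2 stayed within a narrow range, at 10.60 and 10.67 in WT in YPD, 10.69, 10.59 and 10.67 in WT in SPO, 10.79 and 10.74 in ime4 in YPD and 10.58 and 10.60 in ime4 in SPO. Its change in WT was 0.014 log2 (adjusted p = 0.796), and the arrays of the media overlapped. Its fall in ime4 was 0.18 (adjusted p = 0.0107, or 0.065 without ime4 replicate 1 in YPD, within 0.00192 to 0.065 over the alternatives). RNR1 was 0.24 log2 higher in ime4 than in WT in SPO (adjusted p = 0.00608), a call lost with quantile normalization (0.244) and without ime4 replicate 2 in SPO (0.0664, log2 0.16), over a range of 0.00206 to 0.244. RNR3 was 0.26 lower there (adjusted p = 0.00606), lost without ime4 replicate 1 in SPO (0.0647, over a range of 0.000113 to 0.0647) and at -0.51 with quantile normalization.

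**Figure D3:**
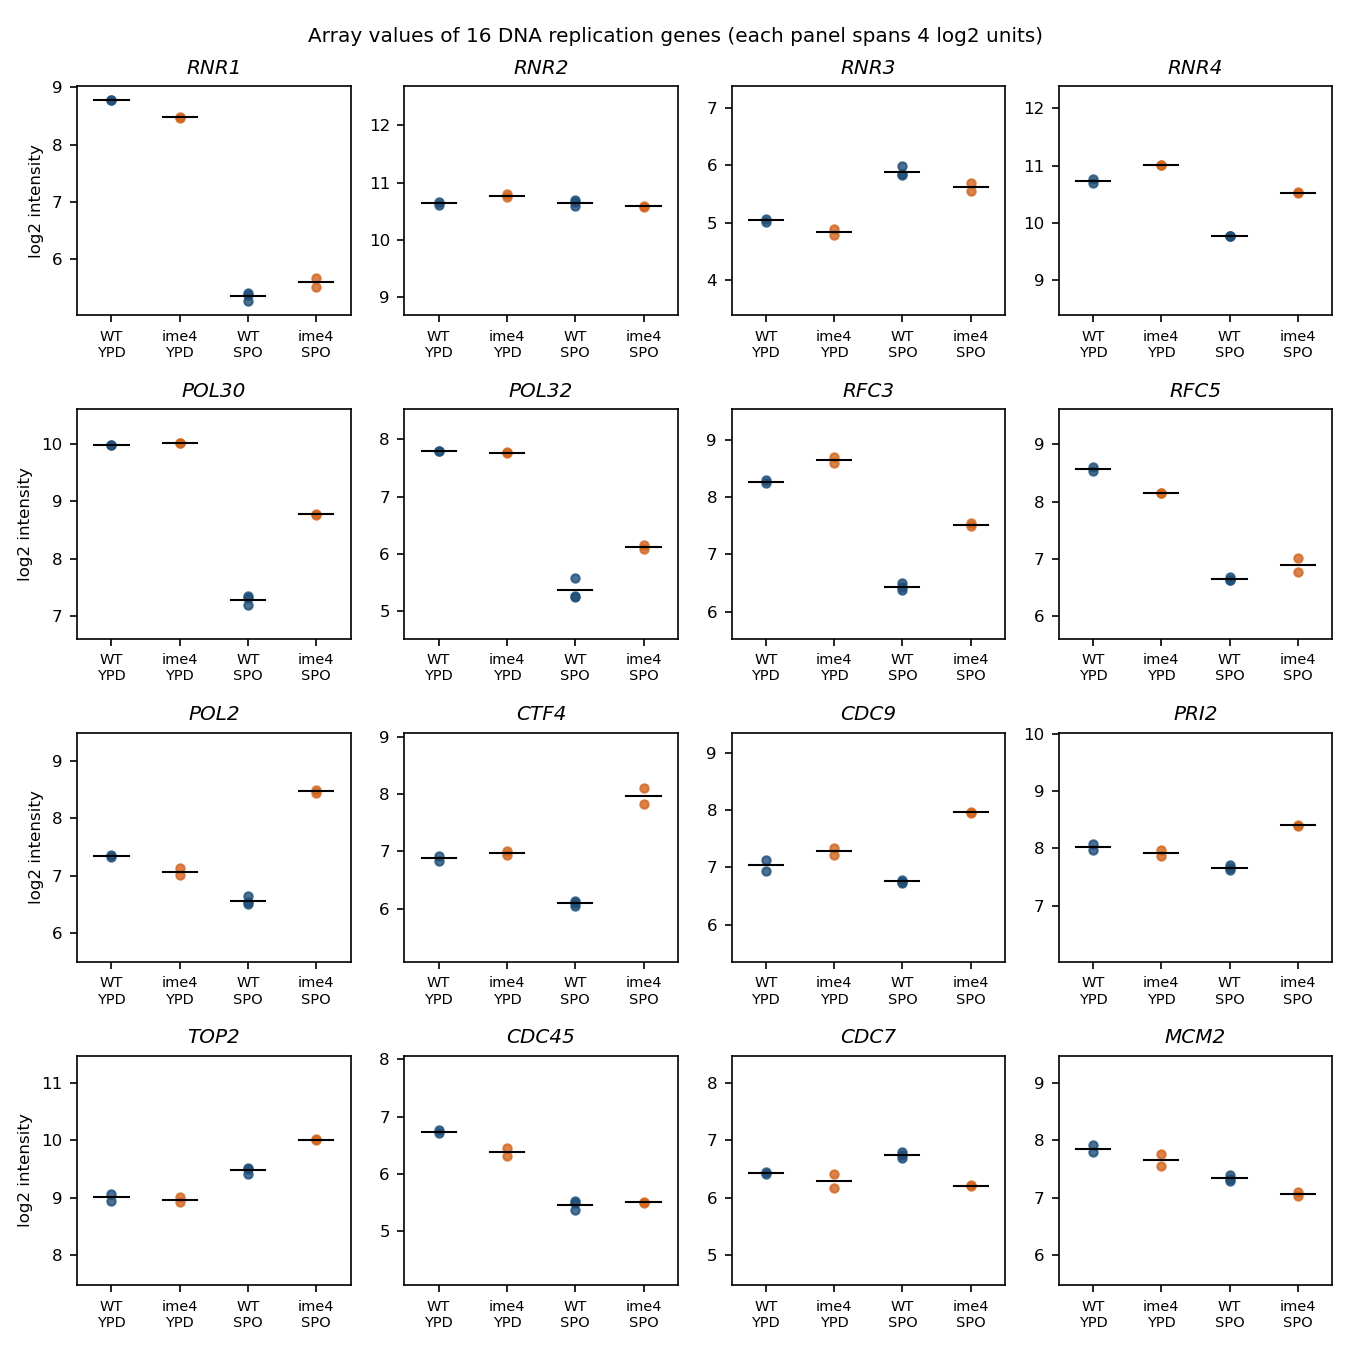
Log2 intensity of 16 DNA replication genes on each array (points: WT blue, ime4 orange) with the group mean (line), in WT and ime4 in YPD (2 arrays each) and in SPO (3 and 2 arrays). RNR1 is low in SPO in both genotypes, POL30 falls less in ime4, and POL2, CTF4, CDC9 and PRI2 are highest in ime4 in SPO.

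The sliding clamp and its loader fell as a group in WT. POL30 encodes PCNA, the clamp that holds polymerases on DNA, and the RFC genes encode the complex that opens and loads it. All 5 measured genes fell at least 2-fold in WT, by 1.06 (RFC1) to 2.70 log2 (POL30), against 21.1% of all sets. All 5 fell less in ime4, by 0.37 (RFC1) to 1.26 (RFC5), 3 of them at least 2-fold, against 16.2% of all sets. POL30 read 9.99 and 9.99 in WT in YPD and 7.35, 7.32 and 7.19 in WT in SPO, and 10.02 and 10.02 in YPD and 8.78 and 8.77 in SPO in ime4. The genotypes were thus 0.0335 log2 apart in YPD (SE 0.0577, adjusted p = 0.674) and 1.49 apart in SPO (SE 0.0527, adjusted p = 2.75e-08), where no arrays overlapped. Its fall was 6.51-fold in WT and 2.37-fold in ime4, and the interaction was 1.46 log2 (SE 0.0781, adjusted p = 7.92e-07).

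RFC3 read 8.29 and 8.24 in WT in YPD and 6.42, 6.50 and 6.37 in WT in SPO, and 8.69 and 8.60 in YPD and 7.55 and 7.49 in SPO in ime4. It was higher in ime4 in YPD already, by 0.38 log2 (adjusted p = 0.00103), the largest such rise of the 48 genes, and by 1.09 in SPO (adjusted p = 1.9e-07). RFC5 went the other way in YPD. It read 8.60 and 8.54 in WT in YPD and 6.68, 6.64 and 6.63 in WT in SPO, and 8.16 and 8.15 in YPD and 6.77 and 7.02 in SPO in ime4. It was 0.41 log2 lower in ime4 in YPD (adjusted p = 0.00236), the largest such fall, and 0.25 higher in SPO (adjusted p = 0.00978). Without ime4 replicate 2 in SPO the SPO difference was 0.12 (adjusted p = 0.0909), and without ime4 replicate 1 in SPO it was 0.37 (adjusted p = 0.000551). RFC1 and RFC4 were higher in ime4 in SPO by 0.83 and 0.33 log2.

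The replicative polymerases did not move as whole complexes. Polymerase epsilon, which extends the leading strand, is represented by its catalytic subunit gene POL2 and by DPB2, its essential second subunit. POL2 read 7.36 and 7.32 in WT in YPD and 6.65, 6.50 and 6.54 in WT in SPO, but 7.13 and 7.003 in YPD and 8.45 and 8.49 in SPO in ime4. It fell 1.71-fold in WT (log2 -0.78, SE 0.0596, adjusted p = 6.97e-07) and rose 2.65-fold in ime4 (log2 1.40, SE 0.0653, adjusted p = 2.25e-08). The interaction of 2.18 log2 (SE 0.0885, adjusted p = 3.13e-07) was the largest among the 48 genes. POL2 was 0.27 lower in ime4 in YPD (adjusted p = 0.00938), a call lost without WT replicate 1 in YPD (0.0525) or ime4 replicate 2 in YPD (0.0698, the highest of a range from 0.00323). DPB2 fell in both genotypes, by 1.27 and 1.16 log2, and its interaction was 0.12 (SE 0.128, adjusted p = 0.451; 0.019 without WT replicate 1 in SPO, the lowest of a range to 0.857).

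Polymerase delta, which extends the lagging strand, showed another split. POL32, the gene of its non-essential subunit, read 7.79 and 7.80 in WT in YPD and 5.26, 5.58 and 5.25 in WT in SPO, and 7.77 and 7.75 in YPD and 6.09 and 6.15 in SPO in ime4. It fell 5.39-fold in WT and 3.12-fold in ime4, and was 0.76 log2 higher in ime4 in SPO (adjusted p = 4.7e-05). The catalytic subunit gene POL3 fell by a similar amount in both genotypes, 0.68 log2 in WT and 0.76 in ime4, with an interaction of -0.083 (SE 0.0882, adjusted p = 0.432). POL31, the gene of the essential accessory subunit, rose by 0.29 in WT (0.18 with centring) and was 0.25 lower in ime4 in SPO (adjusted p = 0.00313).

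Polymerase alpha and primase start each new strand with an RNA-DNA primer. All 4 of their genes fell in WT, against 43.1% of all sets. POL1, the catalytic subunit gene, fell by 1.43 log2 in WT and by 0.51 in ime4, and was 0.88 higher in ime4 in SPO (adjusted p = 6.07e-07). POL12, which encodes the B subunit, fell by 0.60 in WT, while its change in ime4 was -0.11 (adjusted p = 0.0805; it passed with quantile normalization at 0.00233 and with centring at 0.0201, over a range to 0.247). POL12 was also 0.29 lower in ime4 in YPD (adjusted p = 0.00299). Of the primase subunits, PRI1 fell by 0.36 in WT and 0.54 in ime4. PRI2 read 8.08 and 7.96 in WT in YPD and 7.63, 7.70 and 7.66 in WT in SPO, and 7.87 and 7.97 in YPD and 8.41 and 8.39 in SPO in ime4. It thus fell by 0.36 in WT and rose by 0.48 in ime4 (interaction 0.84, SE 0.0801, adjusted p = 1.86e-05).

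CTF4 encodes the trimeric hub that links the helicase to polymerase alpha, and like POL2 it fell in WT and rose in ime4. It read 6.92 and 6.83 in WT in YPD and 6.14, 6.05 and 6.10 in WT in SPO, and 6.996 and 6.94 in YPD and 7.83 and 8.10 in SPO in ime4. The fall in WT was 0.78 log2 and the rise in ime4 1.00 (SE 0.0823, adjusted p = 1.62e-06). In SPO it was 3.66-fold higher in ime4 (adjusted p = 5.29e-08), against 3.75-fold for POL2. In YPD the CTF4 difference was 0.093 log2 (SE 0.0823, adjusted p = 0.4).

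The last group acts behind the fork. CDC9 encodes the ligase that seals Okazaki fragments, RAD27 the nuclease that trims their flaps, and TOP2 the topoisomerase that untangles sister chromatids. CDC9 read 7.13 and 6.93 in WT in YPD and 6.73, 6.75 and 6.78 in WT in SPO, and 7.34 and 7.22 in YPD and 7.95 and 7.97 in SPO in ime4. It fell by 0.28 log2 in WT (0.18 without WT replicate 1 in YPD) and rose by 0.68 in ime4, and was 1.21 higher in ime4 in SPO (adjusted p = 2.81e-07). In YPD it was 0.25 higher (adjusted p = 0.0226), a call lost without WT replicate 2 or ime4 replicate 1 in YPD (0.139 in each case, the highest of a range from 0.00645, with differences of 0.15 and 0.19). TOP2 read 9.06 and 8.95 in WT in YPD and 9.41, 9.51 and 9.51 in WT in SPO, and 8.93 and 9.001 in YPD and 10.02 and 10.00 in SPO in ime4. It rose in both genotypes, 1.39-fold in WT and 2.07-fold in ime4, with an interaction of 0.57 log2 (SE 0.0796, adjusted p = 0.000198). RAD27 fell by 1.09 in WT and 0.59 in ime4.

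**Figure D4:**
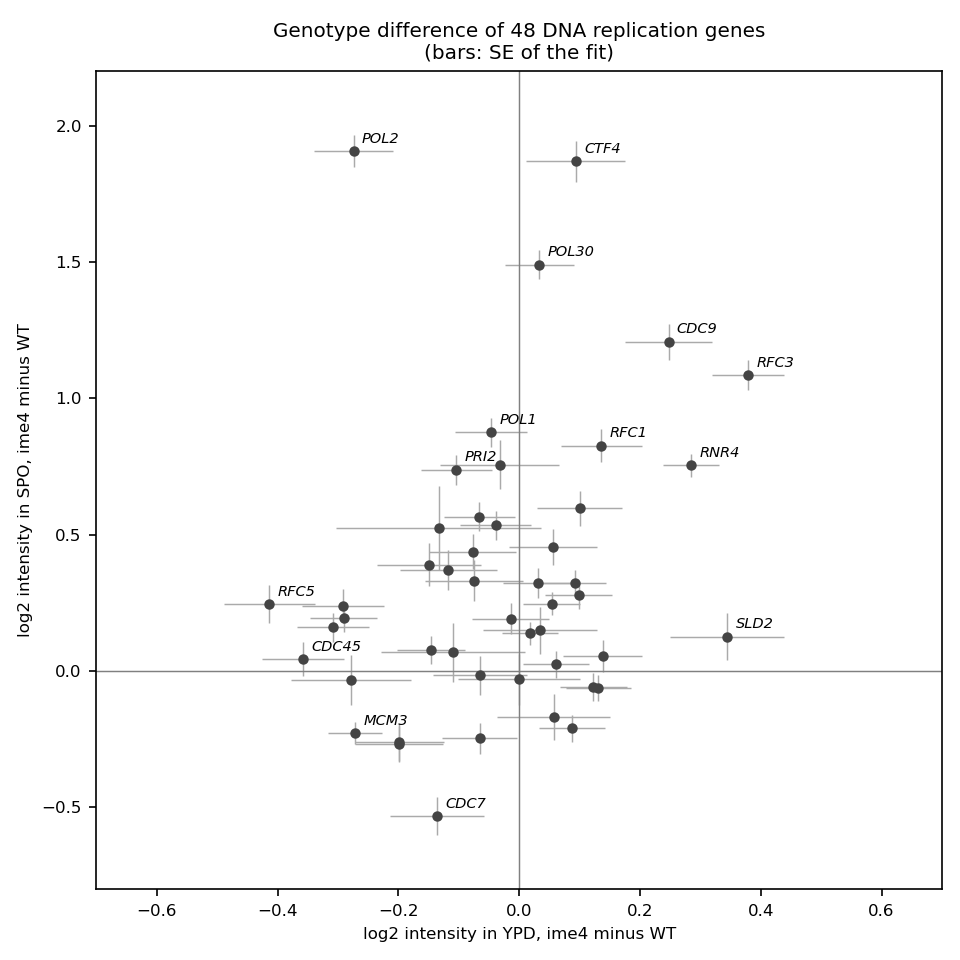
Difference between ime4 and WT in YPD (horizontal axis) and in SPO (vertical axis, on another scale) for the 48 genes, in log2 intensity, with the SE of the fit as bars. In YPD every gene lies between -0.41 and 0.38, while in SPO the values run from -0.53 (CDC7) to 1.91 (POL2).

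Origin binding and licensing genes changed to different degrees within each complex. Of the origin recognition complex, ORC2, ORC1 and ORC3 fell in WT by 1.41, 1.14 and 0.68 log2, and ORC6 rose by 0.28 (0.18 with centring). ORC4 (-0.032) and ORC5 (0.12) did not pass the threshold in WT, ORC4 doing so with quantile normalization (adjusted p = 0.0362) and centring (0.0298, the lowest of a range to 0.74), and ORC5 without the dimmest sets (0.039) and without WT replicate 2 in YPD (0.0169, the lowest of a range to 0.748). ORC1, which encodes the largest subunit, had an interaction of 0.0496 log2 (SE 0.105, adjusted p = 0.701). ORC2 was 0.57 higher in ime4 in SPO (adjusted p = 9.5e-06), ORC3 0.39, ORC5 0.32 and ORC4 0.28. Both loading factors fell in WT, against 43.1% of all sets. CDC6 fell by 1.11 log2 in WT (adjusted p = 7.12e-05), and TAH11, the Cdt1 gene, by 0.57 in WT and 0.35 in ime4. CDC6 was the most variable of the 48 genes among replicates, at 5.18, 4.56 and 4.93 in WT in SPO. Its fall of 0.45 in ime4 (adjusted p = 0.0304) was lost without ime4 replicate 1 in YPD (0.159), ime4 replicate 1 in SPO (0.134) or ime4 replicate 2 in SPO (0.0546), and was 0.85 with quantile normalization (0.00223, the lowest of the range).

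The 5 measured genes of the Mcm helicase all fell in WT, by 0.27 (MCM3) to 1.07 log2 (MCM6), against 43.1% of all sets. None had an interaction past the threshold (range -0.07 to 0.25), against 29.5% of all sets positive and 34.6% negative. Under an alternative, MCM5 passed with centring (adjusted p = 0.0297), MCM6 without WT replicate 1 in SPO (0.00455) and MCM7 without WT replicate 1 in YPD (0.0286). The MCM7 call (log2 -0.30, adjusted p = 0.0247) was lost without WT replicate 2 in YPD (0.304, log2 -0.11), WT replicate 1 in SPO (0.0769) or WT replicate 2 in SPO (0.0554). Without WT replicate 1 in YPD its fall was 0.50 (adjusted p = 0.000867), and its arrays overlapped between the media. MCM2 read 7.80 and 7.91 in WT in YPD and 7.29, 7.39 and 7.33 in WT in SPO, and 7.56 and 7.75 in YPD and 7.04 and 7.10 in SPO in ime4. The ime4 arrays lay below the WT arrays in each medium, as did those of 1736 of the 5359 tested sets in YPD and 2350 in SPO. The MCM2 difference in YPD, -0.20 log2, did not pass the threshold (adjusted p = 0.0571). It passed with quantile normalization (0.0313) and centring (0.0362), and ran from -0.29 to -0.10 log2 over the alternatives. MCM2 and MCM3 were lower in ime4 in SPO, by 0.27 and 0.23 log2 (adjusted p = 0.0051 and 0.0007), while most replication genes with a call there were higher. MCM3 was lower in YPD too, by 0.27 (adjusted p = 0.00131). MCM5 went the other way in SPO, 0.14 log2 higher in ime4 (adjusted p = 0.0147). That call was lost with quantile normalization (log2 0.03, adjusted p = 0.542) and with an intensity trend (0.0549). It was also lost in the blocked fit and without either ime4 array in SPO. For MCM6 and MCM7, the genotype differences in SPO were -0.03 and 0.07 (adjusted p = 0.761 and 0.591).

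Both genes of the kinase that fires origins, and some of the firing factors, rose in WT in SPO. Of all tested sets, 46.9% rose there too. CDC7, the catalytic subunit gene of that kinase, read 6.44 and 6.41 in WT in YPD and 6.75, 6.69 and 6.79 in WT in SPO, and 6.42 and 6.16 in YPD and 6.22 and 6.20 in SPO in ime4. It rose by 0.32 log2 in WT (adjusted p = 0.00183), and its change in ime4 was -0.08 (adjusted p = 0.35; 0.00724 with quantile normalization and 0.0141 without ime4 replicate 2 in YPD, over a range to 0.527). It was 0.53 lower in ime4 in SPO (adjusted p = 9.9e-05), the largest fall of the 48 genes in that comparison, and its interaction of -0.40 (SE 0.104, adjusted p = 0.00851) was the most negative. DBF4, the gene of its activating subunit, rose by 0.40 in WT (0.25 without WT replicate 2 in YPD) and 0.37 in ime4, and the genotypes differed by -0.031 in SPO (SE 0.0924, adjusted p = 0.773).

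SLD2 and DPB11 encode partners that cyclin-dependent kinase joins to start origins. SLD2 read 5.07 and 5.17 in WT in YPD and 5.85, 5.75 and 5.94 in WT in SPO, and 5.41 and 5.51 in YPD and 5.84 and 6.11 in SPO in ime4. It rose by 0.73 log2 in WT (0.49 with quantile normalization) and 0.51 in ime4 (adjusted p = 0.000584), the latter at 0.21 with quantile normalization (0.0684, the highest of a range from 0.000203). SLD2 was 0.34 higher in ime4 in YPD (adjusted p = 0.0182), which was lost with quantile normalization (0.0992), without WT replicate 1 in YPD (0.0968) or without ime4 replicate 2 in YPD (0.102, the highest of a range from 0.00819). DPB11 read 7.03 and 7.09 in WT in YPD and 7.68, 7.63 and 7.58 in WT in SPO, and 7.10 and 7.20 in YPD and 7.43 and 7.42 in SPO in ime4. It rose by 0.57 in WT and 0.27 in ime4, with an interaction of -0.30 (adjusted p = 0.00658).

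CDC45 and MCM10 fell in both genotypes. CDC45, a part of the active helicase, read 6.76 and 6.72 in WT in YPD and 5.36, 5.53 and 5.49 in WT in SPO, and 6.32 and 6.44 in YPD and 5.50 and 5.51 in SPO in ime4. Its fall was 1.28 log2 in WT and 0.88 in ime4, and it was 0.36 lower in ime4 in YPD (adjusted p = 0.00288). In SPO the arrays of the genotypes overlapped, and the difference was 0.043 (adjusted p = 0.545), or -0.20 with quantile normalization (0.0238, the lowest of a range to 0.928). MCM10, which helps open the helicase, fell by 0.90 in WT and by 0.50 in ime4 (0.91 with quantile normalization). In the GINS complex PSF2, PSF1 and SLD5 fell in WT by 0.99, 0.56 and 0.44 log2, whereas PSF3 rose. PSF3 read 7.81 and 8.14 in WT in YPD and 8.62, 8.54 and 8.55 in WT in SPO, and 8.09 and 7.98 in YPD and 8.37 and 8.43 in SPO in ime4. It rose by 0.60 in WT and 0.37 in ime4 (adjusted p = 9.03e-05 and 0.00434). PSF1 read 8.33 and 8.35 in WT in YPD and 7.74, 7.85 and 7.74 in WT in SPO, and 7.99 and 8.08 in YPD and 7.90 and 7.97 in SPO in ime4, so it was 0.31 lower in ime4 in YPD (adjusted p = 0.00304).

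Replication protein A coats single-stranded DNA. Its 3 subunit genes fell in both genotypes, against 43.1% of all sets in WT and 42% in ime4. RFA2 fell by 1.43 log2 in WT and 1.24 in ime4, RFA1 by 1.09 and 0.88, and RFA3 by 0.96 and 0.45. In SPO the 3 genes were higher in ime4 by 0.25, 0.19 and 0.44, against 34.1% of all sets that were higher. The RFA1 call there (adjusted p = 0.0141) was lost without ime4 replicate 2 in SPO (0.0717, the highest of a range from 0.00528).

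Other genes of the pathway were read from lists of 56 further genes, of which 53 were measured. In WT 30 of these fell and 13 rose, against 43.1% and 46.9% of all tested sets, with a median of -0.34 log2. In ime4 31 fell and 13 rose, against 42% and 44%, with a median of -0.30. In SPO 26 were higher and 10 lower in ime4, against 34.1% and 39.4% of all sets. Of 12 further genes of deoxynucleotide supply and reductase control, 8 fell and 3 rose in WT, against 43.1% and 46.9% of all sets. DCD1 (dCMP deaminase) fell by 2.92 log2, DUT1 (dUTPase) fell by 2.15 and DFR1 (dihydrofolate reductase) by 2.07. DFR1 was also 1.00 higher in ime4 in YPD and 1.06 higher in SPO.

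Of 16 fork accessory genes 9 fell and 3 rose in WT, against 43.1% and 46.9% of all sets. TOF1, of the fork protection complex, fell by 2.07 log2, and CTF18 and CTF8, of an alternative clamp loader, by 1.59 and 0.86. MRC1, the checkpoint adaptor at the fork, was chosen after its values were seen: its difference in WT was -0.045 (adjusted p = 0.425; 0.033 with quantile normalization and 0.015 with centring, the lowest of a range to 0.895) and rose by 1.05 in ime4. CKS1, which encodes a subunit of cyclin-dependent kinase, fell by 0.79 in WT and rose by 0.62 in ime4, and was 1.45 higher in ime4 in SPO. CDC28, the kinase gene, fell by 1.03 in WT, and SIC1, the gene of the inhibitor of S phase kinase, rose by 1.23 in WT and 1.66 in ime4. Of the 4 measured genes of S phase cyclins and kinase partners 3 fell and 1 rose in WT, against 43.1% and 46.9% of all sets. All 4 were higher in ime4 in SPO, against 34.1% of all sets.

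Among 5 measured genes of G1/S transcription 2 fell and 1 rose in WT, against 43.1% and 46.9% of all sets. NRM1, a co-repressor of MBF, the transcription factor of many S phase genes, fell by 2.21 log2 in WT and 1.41 in ime4. SWI4 fell by 0.33 in WT (adjusted p = 0.0406), lost in the blocked fit (0.152), without WT replicate 1 in YPD (0.301, log2 -0.18), WT replicate 2 (0.0615) or 3 (0.127, log2 -0.22) in SPO, or either ime4 array in SPO (0.0567), over a range from 0.0049. WHI5 rose by 0.18 in WT (adjusted p = 0.0107) but was -0.38 with quantile normalization (3.99e-05) and lost its call with centring (0.225) and an intensity trend (0.098). Of 9 checkpoint genes 5 rose and 2 fell in WT, a share of rises near the 46.9% of all sets. RAD17 rose by 0.92, CHK1 by 0.48, and RAD9 fell by 0.68. Of 7 genes of replication-coupled chromatin assembly 6 fell in WT and 6 in ime4, against 43.1% and 42% of all sets. Among those that fell in WT were ASF1 by 2.12, MSI1 by 0.95 and SPT16 by 0.91.

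**Figure D5:**
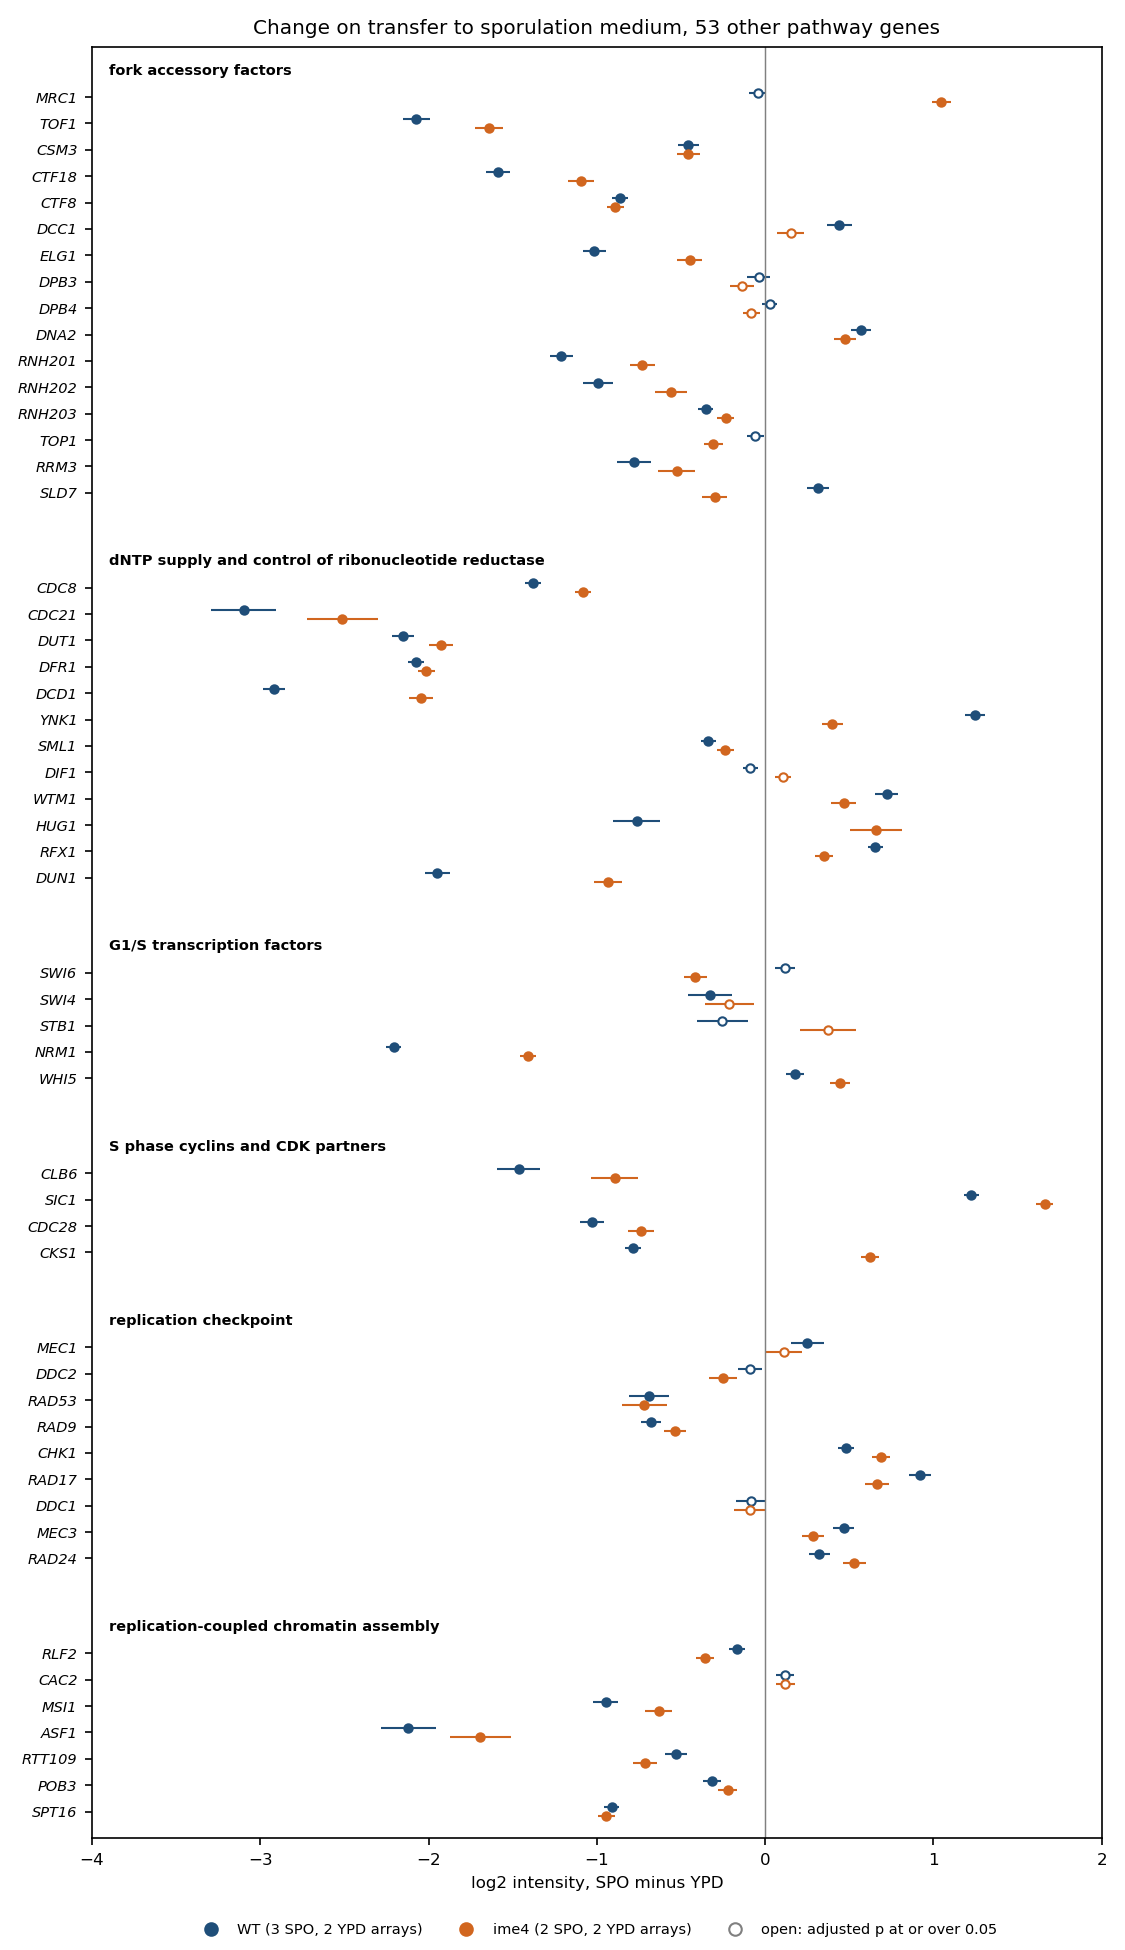
Log2 change from YPD to SPO of 53 other genes of DNA replication, nucleotide supply, S phase control, checkpoint and chromatin assembly in WT (blue) and ime4 (orange), with the SE of the fit as bars and filled points past an adjusted p of 0.05. DCD1, DUT1, DFR1 and TOF1 fell by more than 1.6 log2 in both genotypes, and MRC1 and CKS1 rose in ime4 but not in WT.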

How the data were processed

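The deposited table holds 1 linear intensity per probe set and array, which the authors made with RMA, per the submitters' processing notes; its version and settings are not given in the sources used here. Of 9676 probe sets, 6772 carried a gene name, and 5359 of these matched a gene of the RefSeq R64 table through their Entrez identifier. Each array's background level was the 95th percentile of 1412 named sets of another species. Analysis used log2 of the deposited intensity, with no offset.

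One limma 3.58.1 model (R 4.3.3, lmFit and eBayes) held the 4 group means over 9 arrays, with 5 residual and 4.07 prior degrees of freedom. Every test was two-sided. Its p was adjusted by Benjamini-Hochberg across 5359 sets, with a threshold of 0.05, past which a gene is said to rise or fall. The number of arrays limits the precision: the median SE was 0.0586 log2 between genotypes in SPO and 0.087 for the interaction. The script was first tested on simulated data. Each p judges a difference of group means against the spread between replicate arrays, pooled over the 4 groups and moderated across probe sets.

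Members and gene lists were chosen with earlier results of these data known. The genes named by rule were the ribonucleotide reductase genes, POL30 and, per comparison, up to 3 members with the largest rise and up to 3 with the largest fall among those called, with arrays that did not overlap (this last condition was not used for the interaction). Of each other list, up to 3 genes with the smallest p in WT were named. PRI2, CDC9, CDC6, and all further members were added to describe every gene group. Alternatives, whose effects close the document, were quantile normalization, median centring, dropping the dimmest 25% of sets, raising low values to background, an intensity trend in the variance, a replicate block and the omission of single arrays.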

Additional observations from a re-analysis of the deposited data

Results flagged for a closer look

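The response to sporulation medium differed between ime4 and WT for 31 of the 48 replication genes by the interaction term of the limma fit. That share was near the one over all tested sets, of which 29.5% were positive and 34.6% negative. The members departed from all sets in direction, with 28 positive and 3 negative. The interaction is given here as the ime4 response minus the WT response in log2. It was positive for POL2 (2.18), CTF4 (1.78), POL30 (1.46), CDC9 (0.96), POL1 (0.92), PRI2 (0.84), POL32 (0.79), RFC3 (0.71), RFC1 (0.69), CDC6 (0.66), RFC5 (0.66), ORC2 (0.63), TOP2 (0.57), ORC3 (0.54), RNR1 (0.53), RFA3 (0.52), RAD27 (0.50), PSF2 (0.49), POL12 (0.49), RNR4 (0.47), PSF1 (0.47), RFC4 (0.41), CDC45 (0.40), MCM10 (0.40), ORC5 (0.29), SLD5 (0.23), TAH11 (0.22) and RFA2 (0.19). It was negative for RNR2 (-0.19), DPB11 (-0.30) and CDC7 (-0.40).

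Of these interactions, 6 lost their call under at least 1 alternative: CDC45, CDC6, RFA2, RNR2, SLD5 and TAH11. The CDC45 call was lost with quantile normalization (adjusted p = 0.163). The other 5 were lost in the blocked fit and without single arrays, with the highest adjusted p at 0.104 for CDC6 (without ime4 replicate 2 in YPD), 0.0866 for RFA2, 0.0679 for SLD5 and 0.0981 for TAH11 (each without ime4 replicate 1 in YPD), and 0.175 for RNR2 (with centring). No group had the 4 arrays needed to look for a single array far from the others.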

How the results depend on the processing

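Of 164 calls over the 48 genes and 5 comparisons, 143 held under each alternative run, 21 were lost under at least 1, and 31 values that had not passed did so under at least 1. With quantile normalization the members' median was -0.8027 log2 for SPO against YPD in WT, -0.4546 in ime4, 0.1996 between genotypes in SPO and 0.2822 for the interaction, which was then negative for 6 genes. With each array centred on its median these were -0.8302, -0.447, 0.2808 and 0.4066, with -0.0584 between genotypes in YPD, where 11 genes were then lower in ime4. Centring moved the median of all tested sets in WT from 0.0549 to -0.0476. Without the dimmest sets, which leaves 36 of the members, the medians were -0.6382 in WT, -0.2858 in ime4, -0.007 between genotypes in YPD and 0.4369 for the interaction, and 3 genes were lower in ime4 in SPO. Quantile normalization reversed CDC45 between genotypes in SPO (-0.2042) and WHI5 in WT (-0.3816) and ime4 (-0.2038). Leaving out each array in turn gave medians of -0.7922 to -0.7015 in WT, -0.4058 to -0.3329 in ime4, -0.0357 to -0.0165 between genotypes in YPD, 0.1774 to 0.2659 in SPO and 0.2851 to 0.3756 for the interaction. The replicate numbers did not pair the samples: same-numbered deviations correlated between groups with r of -0.0204 to 0.021. With the replicate block the median between genotypes in SPO was 0.2156, and the block ended 5 interaction calls and 1 SPO call. The choice among several probe sets of a gene was not run, since each member had 1. The cause of these shifts was not tested, and the number of arrays limits small differences.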
